A study of Homo sapiens with 12 samples.

Results

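The expression of TKTL1 and of the other enzymes of the pentose phosphate pathway was examined in MiaPaca2 cells, an established human pancreatic cancer cell line. The 7 genes (TKTL1, TKT, TALDO1, PGD, PGLS, RPIA and RPE) were taken by name, and all 7 were among the 17123 genes that passed the filter on low counts, of 63677 identifiers counted. TKTL1 was chosen by its counts, at or near 0 in unprimed cells and well above 0 in primed cells, so its difference between these cells is given as a description, without a test. Total RNA from wild-type MiaPaca2 cells was sequenced in 4 groups with 3 libraries each, all harvested after 24 h. Unprimed cells received DMSO as vehicle (Con) or the Vitamin D analogue calcipotriol at 1 µM (CPT). Epigenetically primed cells received 2 mM glyceryl triacetate, an acetate precursor (GTA), with 1 µM of 5-Aza-2′-deoxycytidine, an inhibitor of DNA methylation (5-Aza), either alone (GTA+5-Aza) or with 1 µM calcipotriol (CPT+GTA+5-Aza). GTA and 5-Aza were always given together, so their effects cannot be told apart, and all libraries come from 1 cell line.

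The pentose phosphate pathway branches from glycolysis at glucose 6-phosphate. Its oxidative branch makes NADPH, the reducing power for lipid synthesis and for defence against oxidants, and its non-oxidative branch makes ribose 5-phosphate for nucleotides and returns surplus sugar phosphates to glycolysis. Transketolase (TKT) and transaldolase (TALDO1) carry out the reversible exchanges of the non-oxidative branch, in which pancreatic cancer cells are known to produce much of their ribose. TKTL1 is a transketolase-like protein encoded on the X chromosome that lacks part of the cofactor-binding region of TKT, and whether it has transketolase activity of its own is debated.

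The libraries held 16162490 to 21224665 counts, and libraries of the same group correlated at 0.986 to 0.991 in log2 CPM (TMM-normalised read counts relative to sequencing depth). The ductal epithelial list summed to 2085 to 2627 CPM, carried by KRT8 and KRT18, while KRT19 was at 28.4 to 41.4 CPM, KRT7 at 0.210 to 2.77 CPM, and EPCAM and CDH1 did not pass the filter. Of the markers of other cell types, 4 of 5 acinar, 4 of 5 endocrine and 2 of 3 endothelial genes had no count in any library, and the immune list summed to at most 1.74 CPM. The fibroblast list summed to 689 to 842 CPM in unprimed and 815 to 944 CPM in primed libraries, nearly all of it COL1A2 (COL1A1 was at most 2.204 CPM, DCN did not pass the filter and LUM had no count), and its part in the results was not tested. In RNA from whole cultures, fewer cells that express a gene and less RNA per cell cannot be told apart.

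The DNA upstream of TKTL1 and TKT is shown because the cells were treated with an inhibitor of DNA methylation, which acts at CpG sites, and because these are the transketolase genes among the members. The sequences are from RefSeq on GRCh38.p14, begin 250 bases before the annotated start and run 142 bases towards the gene on its own strand, with each CpG in capitals.
TKTL1: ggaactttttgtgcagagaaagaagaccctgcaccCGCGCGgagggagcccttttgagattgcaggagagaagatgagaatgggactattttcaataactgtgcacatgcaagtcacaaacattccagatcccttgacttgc
TKT: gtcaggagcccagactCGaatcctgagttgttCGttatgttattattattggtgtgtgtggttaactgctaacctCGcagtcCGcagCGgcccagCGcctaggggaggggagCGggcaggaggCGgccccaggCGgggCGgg
The TKTL1 stretch lies at chrX:154295545-154295686 on the plus strand and holds 3 CpG, and the TKT stretch lies at chr3:53256131-53256272 on the minus strand and holds 10 CpG. Over the whole 250 bases, TKTL1 had 13 CpG, more than 53.4% of 35116 promoters of this length, whose median was 11. A second annotated start of TKTL1, 9375 bases downstream, had 6. The other members had 19 (PGLS), 21 (RPE), 22 (RPIA), 24 (TKT), 27 (PGD) and 40 (TALDO1), so TKTL1 had the fewest CpG among the 7 genes. The motif GGGCGG, searched on both strands, occurred in the window of TKT, TALDO1, PGD, RPIA and RPE but not in that of TKTL1 or PGLS, and was present in 42.6% of all promoters. TGACNNNGC, the core of the antioxidant response element, was found once each in PGD and RPE against 10.9% of all promoters, and the E-box CACGTG was found in none of the 7 against 6.34%. DNA methylation was not measured in these libraries, and a motif match describes only the letters.

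TKTL1 (ENSG00000007350, GRCh38 chrX:154295795-154330350, plus strand) was read 0, 0 and 0 times in the 3 Con libraries and 2, 0 and 0 times in the CPT libraries. The GTA+5-Aza libraries held 42, 34 and 41 counts and the CPT+GTA+5-Aza libraries 39, 56 and 32. The primed libraries were thus all above the unprimed ones, with 244 counts in total against 2. In CPM, TKTL1 was 2.09 ± 0.335 (SD, n = 3) in GTA+5-Aza and 2.40 ± 0.677 in CPT+GTA+5-Aza. Set against a floor of 3 counts per Con library, TKTL1 was at least 14.0-fold higher in GTA+5-Aza than in Con. Against the 2 counts of CPT, the ratio of rates in CPT+GTA+5-Aza was 68.3, with a 95% interval of 18.5 to 570 that covers counting error only. A count of 0 in an unprimed library allows up to 3 counts, so expression below that limit was not detectable at this depth. The exons of TKTL1 share 59 bases with TEX28 on the opposite strand, 1.65% of the exonic length of TKTL1. The strand setting of the counting is not given in the sources used here, so reads there cannot be told apart. No count of TEX28 is given here.

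**Figure D1:**
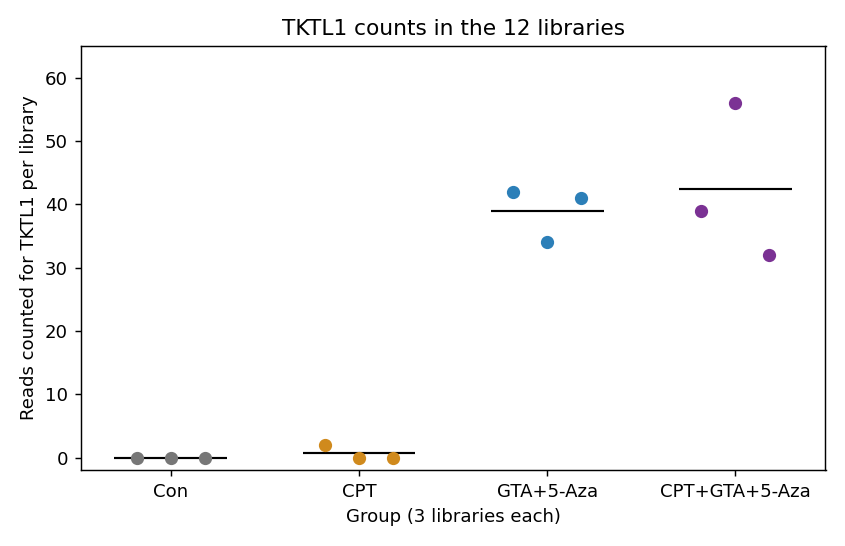
Counts of TKTL1 (y axis, reads per library) in each of the 12 libraries by group (x axis); points are libraries and lines are group means. The 6 unprimed libraries lie between 0 and 2 counts and the 6 primed libraries between 32 and 56.

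CPT did not change TKTL1 detectably in primed cells, the only comparison of this gene that its choice did not use. The log2 fold change of CPT+GTA+5-Aza against GTA+5-Aza was 0.20 (SE 0.48, 95% interval -0.78 to 1.19, adjusted p = 1.00 in edgeR's quasi-likelihood F test after Benjamini-Hochberg adjustment), an interval that spans more than a doubling. The estimate rested on the CPT+GTA+5-Aza library with 56 counts, without which it was -0.05. Over the 6 primed libraries, TKTL1 counts had an index of dispersion of 2.09, where counting error alone gives 1. Both unprimed groups were at or below the floor, and no fold change between them is given.

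The level of TKTL1 in primed cells was low. Per kilobase of its canonical transcript, it reached 0.829 ± 0.133 CPM in GTA+5-Aza and 0.953 ± 0.269 CPM in CPT+GTA+5-Aza (SD, n = 3). Its primed level was higher than in 16.9% of the 16472 tested genes with a known length, against 0.194% in unprimed cells. Genes that failed the filter on low counts are not in this ranking, and TKTL1 passed it through its primed libraries. TKT was 93.5 to 175 times higher than TKTL1 per kilobase in the 6 primed libraries, or 41.8 to 78.3 times when the length of all annotated exons was used. TKTL1 therefore made up 0.567% to 1.06% of the summed TKT and TKTL1 level per kilobase. 
The pattern of TKTL1, with at most 3 counts in each unprimed library and more than 3 in each primed library, was shared by 31 of the 17123 genes (0.181%, TKTL1 included), and no gene had the reverse pattern. TKTL1 ranked 4 among the 31 by mean primed CPM (2.24, against a median of 0.919 and a highest value of 6.97 for SVIP, an inhibitor of protein degradation at the endoplasmic reticulum). Of the 31 genes, 8 are on the X chromosome, which holds 2.99% of the genes tested. Genes with this pattern passed the filter on low counts only through their primed libraries, unlike the tested genes as a whole. These shares are therefore not like for like, and an excess on the X chromosome was not tested. The 8 genes include TKTL1, which was chosen by this pattern, and the non-coding RNAs XIST and TSIX. XIST and TSIX overlap on opposite strands, so they are not separate loci. They had 0 counts in each unprimed library and 611 and 278 counts in total in the primed ones. The others are the cancer-testis genes MAGEB2 and SSX3, which had 0 counts in each unprimed library and 70 and 112 counts in total in the primed ones, as well as FAM9C, PNMA5 and PNMA6E.

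By the correlation of log2(CPM + 0.5) over the 12 libraries, 10 genes were most like TKTL1, with Pearson's r between 0.983 and 0.991. These were PTX3 (0.991), BCORL1 (0.989), TSIX (0.987), SCRN1, GNL1, TSPAN33 and XIST (0.986 each), TWIST1 (0.984), and DHRS2 and TSPAN15 (0.983 each). The libraries fall into primed and unprimed cells, so that these values mainly describe a shared gap between them. Pearson's r takes no account of the level of a gene or of the size of its change. PTX3 was at 149 to 159 CPM in unprimed and 260 to 280 CPM in primed libraries, whereas XIST and TSIX had 0 counts in unprimed libraries.

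The 6 other enzymes were abundant in every group. They were higher per kilobase than 78.5% to 97.6% of tested genes with a known length. In Con, TALDO1 was highest on this scale (153 ± 3.27 CPM per kilobase, SD, n = 3), followed by TKT (142 ± 2.18), PGD (94.0 ± 1.96), PGLS (54.9 ± 3.999), RPE (30.8 ± 0.858) and RPIA (22.7 ± 0.835). This order was the same in the other 3 groups. The ranges of adjacent enzymes did not overlap within a group, except RPE (28.5 to 32.1) and RPIA (25.7 to 31.8) in CPT, whose ranges overlapped.

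TKT (ENSG00000163931, chr3:53224712-53256052, minus strand), the main transketolase, was lower in primed cells. Its CPM were 417, 426 and 430 in Con, 412, 428 and 392 in CPT, 363, 355 and 395 in GTA+5-Aza and 355, 354 and 348 in CPT+GTA+5-Aza. All GTA+5-Aza libraries lay below all Con libraries and all CPT+GTA+5-Aza libraries below all CPT libraries. TKT fell by 0.19 on the log2 scale in GTA+5-Aza against Con (SE 0.053, adjusted p = 0.0118) and by 0.22 in CPT+GTA+5-Aza against CPT (SE 0.053, adjusted p = 0.00454, edgeR's quasi-likelihood F test after Benjamini-Hochberg adjustment). Averaged over both CPT states, with 6 libraries on each side, the change was -13.4% (95% interval -18.0% to -8.64%, adjusted p = 0.000114 in the same edgeR test). In GTA+5-Aza against Con the call was lost without GTA+5-Aza replicate 1 (adjusted p = 0.0641) or replicate 2 (adjusted p = 0.0601).

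TALDO1 (ENSG00000177156, chr11:747415-765012, plus strand), which works with TKT in the non-oxidative branch, did not pass the test in any comparison. Its CPM were 180, 188 and 182 in Con, 193, 198 and 199 in CPT, 191, 175 and 183 in GTA+5-Aza and 181, 182 and 179 in CPT+GTA+5-Aza. The CPT libraries lay above the Con and the CPT+GTA+5-Aza libraries. The log2 difference was 0.10 in CPT against Con (SE 0.056, adjusted p = 1.00) and -0.12 in CPT+GTA+5-Aza against CPT (SE 0.056, adjusted p = 0.136 in edgeR's quasi-likelihood F test after Benjamini-Hochberg adjustment). Both comparisons use the same CPT libraries.

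RPIA (ENSG00000153574, chr2:88691673-88750929, plus strand), the isomerase that makes ribose 5-phosphate, was highest in CPT. Its CPM were 39.8, 42.7 and 40.8 in Con, 51.6, 57.6 and 46.6 in CPT, 40.5, 40.9 and 44.3 in GTA+5-Aza and 38.2, 41.7 and 42.0 in CPT+GTA+5-Aza. The CPT libraries lay above all others, and the other 3 groups overlapped. In CPT+GTA+5-Aza against CPT, RPIA fell by 0.35 on the log2 scale (SE 0.092, adjusted p = 0.00797, edgeR's quasi-likelihood F test after Benjamini-Hochberg adjustment), a call that was lost without CPT+GTA+5-Aza replicate 1 (-0.31, adjusted p = 0.0536). In CPT against Con, its log2 difference was 0.34 (SE 0.092, unadjusted P = 0.00106) with an adjusted p of 0.935 in the same edgeR test over all genes. These comparisons share the CPT libraries. In GTA+5-Aza against Con the difference was 0.03 (SE 0.092, adjusted p = 0.893), and the interaction of CPT and priming was -0.38 (SE 0.13, unadjusted P = 0.00706, adjusted p = 1.00).

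RPE (ENSG00000197713, chr2:210002565-210022260, plus strand), the epimerase that feeds xylulose 5-phosphate to transketolase, was slightly lower in primed cells. Its CPM were 100.4, 94.98 and 98.3 in Con, 102, 96.0 and 90.5 in CPT, 88.7, 87.2 and 85.6 in GTA+5-Aza and 90.2, 84.8 and 86.5 in CPT+GTA+5-Aza. The 6 primed libraries all lay below the 6 unprimed ones, by a narrow margin of 90.5 against 90.2. Averaged over both CPT states, RPE fell by 0.15 on the log2 scale (SE 0.048, adjusted p = 0.0157, edgeR's quasi-likelihood F test after Benjamini-Hochberg adjustment), but with scaling by library size only the value was -0.11 (adjusted p = 0.0774). Neither priming comparison passed on its own (-0.17 with adjusted p = 0.0960 in GTA+5-Aza against Con and -0.14 with adjusted p = 0.166 in CPT+GTA+5-Aza against CPT). The exons of RPE share 840 bases with KANSL1L on the opposite strand, 23.8% of its exonic length, and the strand setting of the counting is not given in the sources used here, so reads there cannot be told apart. KANSL1L was at 17.1 to 23.3 CPM, and the retrocopy RPEL1 at 0.148 to 0.632 CPM.

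PGD and PGLS, the members of the oxidative branch, showed no change that passed the test. PGD (ENSG00000142657, chr1:10398592-10420511, plus strand), which makes NADPH and ribulose 5-phosphate, was at 213 ± 4.44 CPM in Con, 217 ± 1.52 in CPT, 222 ± 1.13 in GTA+5-Aza and 214 ± 5.32 in CPT+GTA+5-Aza (SD, n = 3). The GTA+5-Aza libraries, at 221 to 223 CPM, lay above those of each of the other groups, with a log2 difference from Con of 0.06 (SE 0.053, adjusted p = 0.530 in edgeR's quasi-likelihood F test after Benjamini-Hochberg adjustment). PGLS (ENSG00000130313, chr19:17511636-17521288, plus strand), the lactonase before PGD, was at 55.4 ± 4.03, 53.0 ± 7.31, 55.6 ± 7.45 and 56.9 ± 0.941 CPM in the same groups, and the groups overlapped in every comparison. Averaged over both CPT states, the 95% interval of the change with priming was -4.02% to 6.90% for PGD and -6.24% to 14.8% for PGLS. The exons of PGLS share 8.94% of their length with PGLS-DT on the opposite strand, which was at 12.8 to 21.2 CPM.

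**Figure D2:**
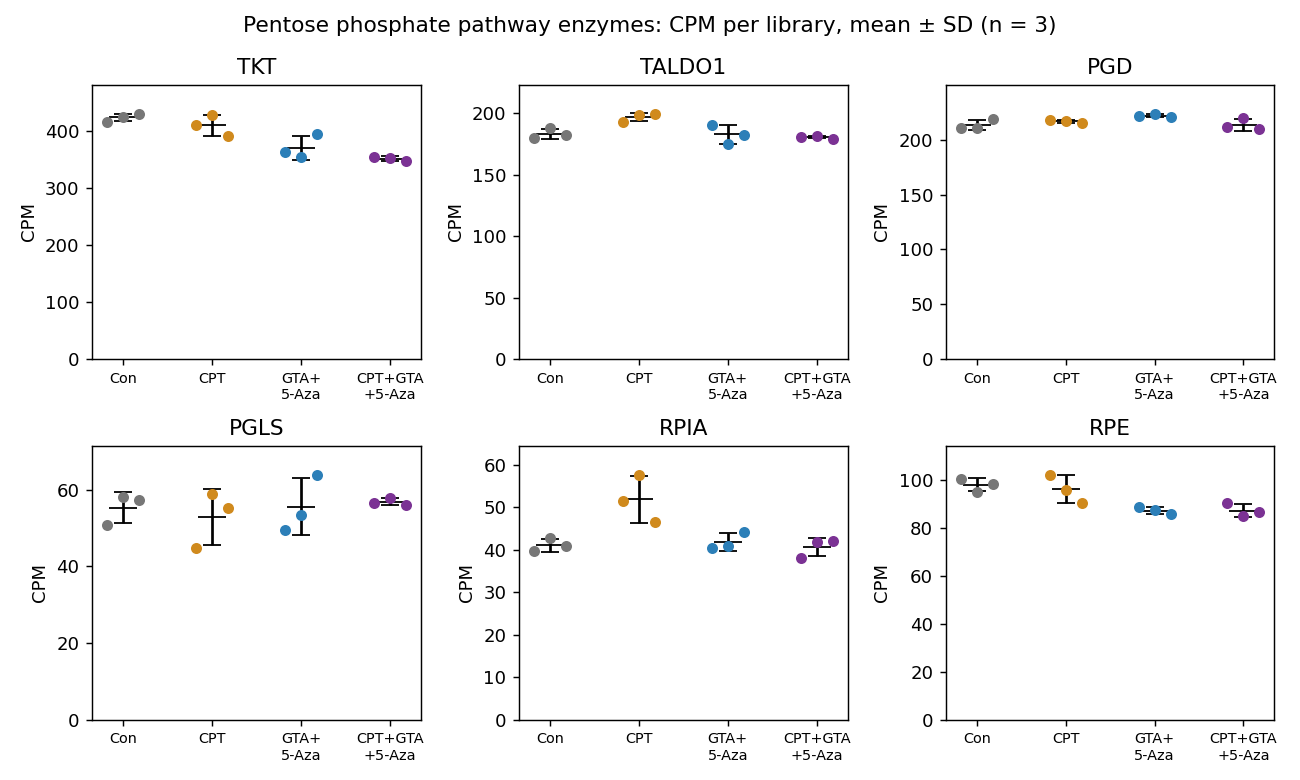
CPM (y axis, from 0) of the 6 enzymes other than TKTL1 in each library, by group; points are libraries, horizontal lines are group means and bars are ± SD (n = 3). TKT and RPE sit lower in the primed groups, RPIA is highest in CPT with 46.6 to 57.6, and PGD and PGLS vary little between groups.

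Over the 6 enzymes other than TKTL1, 1 was called in GTA+5-Aza against Con at an adjusted p under 0.05, TKT, against 17.5% of all genes, and it was lower, as were 7.53% of all genes. In CPT+GTA+5-Aza against CPT, 2 of 6 were called, TKT and RPIA, both lower, against 17% of all genes (7.39% lower). Averaged over both CPT states, 2 of 6 were called, TKT and RPE, both lower, against 30.9% of all genes (14% lower). The median log2 difference of the 6 enzymes was 0.00, -0.13 and -0.11 in these comparisons, against 0.01 for all genes in each. In GTA+5-Aza against Con, the groups did not overlap for 3 of 6 enzymes (34.1% of all genes), of which TKT and RPE were lower and PGD higher. In CPT+GTA+5-Aza against CPT they did not overlap for 4 of 6 (30.8%), all lower. No enzyme of the 6 changed by more than 1.5-fold in either comparison, whereas 8.44% and 8.67% of all genes passed that fold together with an unadjusted P under 0.05. Averaged over both CPT states, RPE was the 1 of 6 whose primed and unprimed libraries did not overlap (14.8% of all genes).

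CPT by itself gave no call among the pathway genes at an adjusted p under 0.05 (edgeR). In CPT against Con 0 of 6 enzymes were called (0% of all genes), and RPIA was the 1 with an unadjusted P under 0.05, against 4.28% of all genes. The groups did not overlap for RPIA and TALDO1, against 8.02% of all genes. In primed cells, 0 of 7 were called for CPT (0% of all genes) and 0 had an unadjusted P under 0.05 (2.71% of all genes), with the groups of PGD alone not overlapping (9.15%). In the interaction of CPT and priming 0 of 6 were called (0% of all genes), and RPIA was again the 1 with an unadjusted P under 0.05 (2.63%). With DESeq2, the members called in these 3 comparisons were 0 as well.

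**Figure D3:**
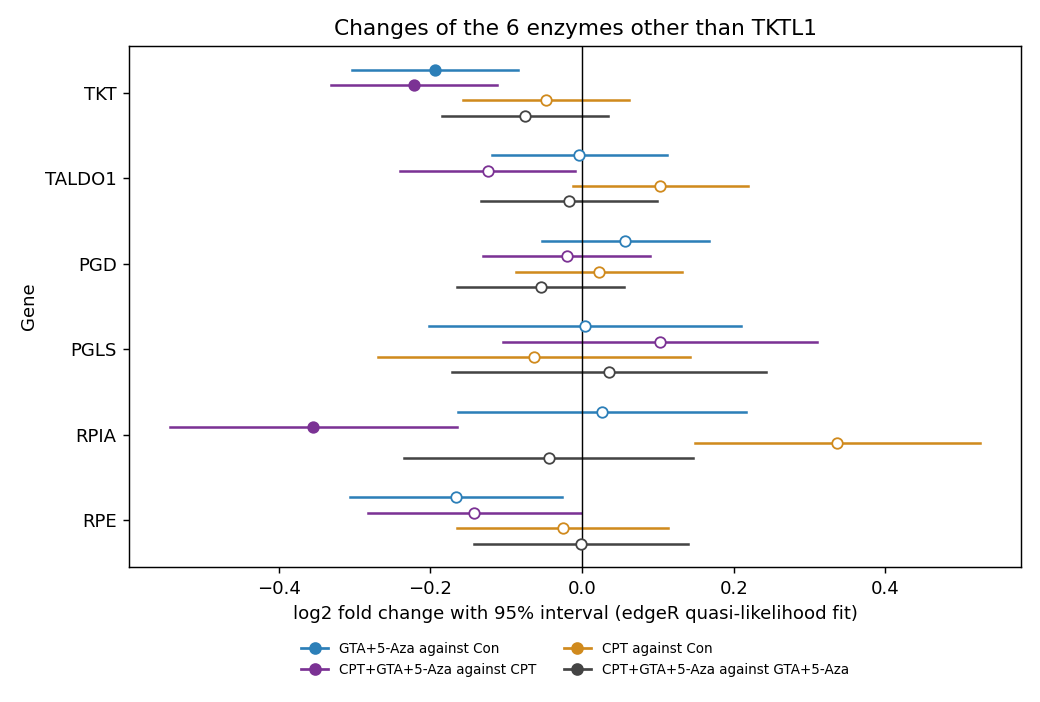
Fitted log2 fold change (x axis) of each of the 6 enzymes (y axis) in 4 comparisons, with 95% intervals as lines; filled points have an adjusted p under 0.05 and open points do not. Filled points are TKT at -0.19 and -0.22 and RPIA at -0.35.

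Genes next to the pathway were compared with all genes tested, of which 16.8% were called higher and 14% lower with priming averaged over both CPT states. Of 19 tested genes that make, use or divert sugar phosphates, 4 rose and 2 fell (median -0.04, against 0.01 for all genes), a share close to the 30.9% called among all genes. ALDOC, an aldolase of glycolysis, rose from 2.97 ± 0.909 CPM in Con to 6.80 ± 0.577 in GTA+5-Aza (SD, n = 3). Its averaged log2 fold change was 1.03 (SE 0.18, adjusted p = 5.7e-05 in edgeR's quasi-likelihood F test after Benjamini-Hochberg adjustment). PGM1, which links glycogen to glucose 6-phosphate, rose by 0.27 and PFKP, a phosphofructokinase, by 0.20. PRPSAP2, an associated protein of the synthetase that turns ribose 5-phosphate into PRPP, fell by 0.36 (SE 0.057, adjusted p = 2.32e-05, same edgeR test), from 58.8 to 65.1 CPM in unprimed to 45.6 to 51.9 CPM in primed libraries.

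Transketolases need thiamine diphosphate as cofactor. Of 4 tested genes of thiamine supply, 1 rose and 0 fell (median 0.26), against 16.8% higher and 14% lower among all genes. This was SLC19A2, a thiamine transporter, with an averaged log2 fold change of 0.74 (SE 0.16, adjusted p = 0.000925 in edgeR's quasi-likelihood F test after Benjamini-Hochberg adjustment) and values of 2.72 to 5.15 CPM in unprimed and 5.16 to 8.27 CPM in primed libraries. Of 10 tested genes for other NADPH sources, 2 rose and 1 fell (median 0.00), close to the 30.9% called among all genes. ALDH1L2, a mitochondrial enzyme that makes NADPH from formyl-tetrahydrofolate, rose from 2.06 ± 0.236 CPM in Con to 6.42 ± 0.759 in GTA+5-Aza, with an averaged log2 fold change of 1.72 (SE 0.18, adjusted p = 2.88e-08, same edgeR test). IDH2, the mitochondrial isocitrate dehydrogenase, rose by 0.19, and MTHFD1, the cytosolic folate enzyme, fell by 0.18.

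Of 13 tested redox enzymes that draw on NADPH, directly or through glutathione and thioredoxin, 6 rose and 2 fell (median 0.03), against 16.8% higher and 14% lower among all genes. CBR1, a carbonyl reductase, rose by 0.53 (SE 0.065, adjusted p = 6.22e-07 in edgeR's quasi-likelihood F test after Benjamini-Hochberg adjustment) and GPX1, a glutathione peroxidase, by 0.44. GLRX, a glutaredoxin, rose by 1.62 from a low level of 0.330 to 1.15 CPM in unprimed libraries. It was at 0.903 to 3.10 CPM in primed libraries, so the ranges overlapped. NRF2 is the factor that controls many of these genes and several genes of the pentose phosphate pathway. Of 14 tested genes for NRF2, its inhibitor and its targets, 5 rose and 2 fell (median 0.09), against the same shares of all genes. NFE2L2, the gene of NRF2, was at 80.6 ± 5.75 CPM in unprimed and 72.3 ± 2.42 CPM in primed libraries (SD, n = 6). KEAP1, the inhibitor, was at 85.3 ± 9.66 and 86.5 ± 5.05 CPM. FTL, the ferritin light chain, rose by 0.31, GCLM, a subunit of the glutathione synthesis enzyme, by 0.20 and NQO1, a quinone reductase that is also on the list of redox enzymes, by 0.16, whereas SLC7A11, the cystine transporter, fell by 0.58 (SE 0.063, adjusted p = 7.26e-08, same edgeR test).

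Of 18 tested genes of nucleotide synthesis, 2 rose and 7 fell (median -0.12, against 0.01 for all genes), where 16.8% of all genes were called higher and 14% lower. PAICS of purine synthesis fell by 0.20 and UMPS of pyrimidine synthesis by 0.24, with all 6 primed libraries below all 6 unprimed ones for each. TYMS, the thymidylate synthase, fell by 0.16, and IMPDH1 of guanine nucleotide synthesis rose by 0.22 (adjusted p = 0.00107 in edgeR's quasi-likelihood F test after Benjamini-Hochberg adjustment). No gene of the 6 lists was called for CPT in unprimed or in primed cells.

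**Figure D4:**
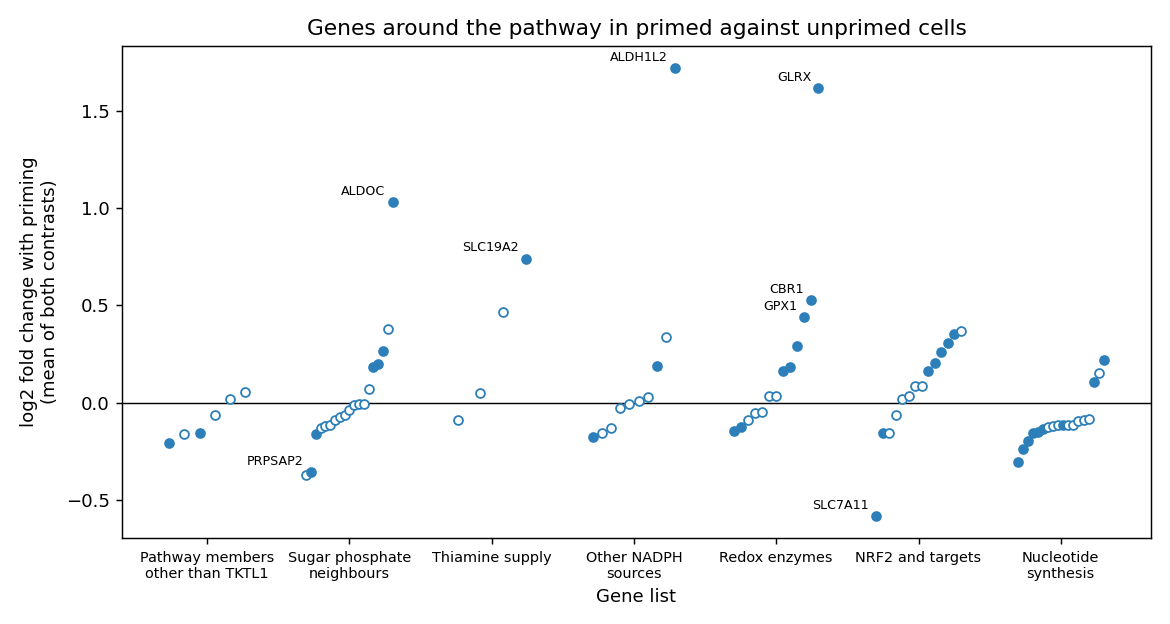
Log2 fold change with priming averaged over both CPT states (y axis) for each tested gene of 7 lists (x axis), sorted by value within a list; filled points have an adjusted p under 0.05. ALDH1L2 at 1.72, GLRX at 1.62 and ALDOC at 1.03 are the highest, and 7 of 18 nucleotide synthesis genes are filled below 0.

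TKTL1 lies in a gene-dense part of the long arm of the X chromosome. Within 250 kb of its start, 12 of the 21 other annotated genes considered passed the filter on low counts, and averaged over both CPT states 7 of them rose with priming (16.8% of all genes) and 1 fell (14%), with a median of 0.22 against 0.01 for all genes. PLXNA3, a semaphorin receptor, was at 20.98, 24.3 and 21.2 CPM in Con, 23.0, 22.0 and 21.5 in CPT, 34.8, 31.3 and 36.2 in GTA+5-Aza and 32.8, 32.5 and 34.2 in CPT+GTA+5-Aza. Every primed library was above every unprimed one, with a log2 fold change of 0.60 (SE 0.073, adjusted p = 4.6e-07 in edgeR's quasi-likelihood F test after Benjamini-Hochberg adjustment). LAGE3 rose by 0.43, FAM50A by 0.34, DNASE1L1 by 0.33, TAFAZZIN and UBL4A by 0.28 each and the actin crosslinker FLNA by 0.16. SLC10A3 fell by 0.31, while FAM3A (-0.18, adjusted p = 0.0516), RPL10 (-0.06), EMD (0.02) and ATP6AP1 (-0.03) did not pass the same edgeR test. In the separate comparisons, 5 of the 12 rose (9.95% of all genes) and 0 fell (7.53%) in GTA+5-Aza against Con, 5 rose (9.57%) and 1 fell (7.39%) in CPT+GTA+5-Aza against CPT, and none was called for CPT in unprimed or primed cells. The call of TAFAZZIN was lost when any of 5 of the 12 libraries was left out, and FAM3A passed as lower with RLE scaling (adjusted p = 0.0432), in DESeq2 (0.0273), in edgeR's likelihood ratio test (0.0455) and without any of 4 libraries. The annotated spans of some of these genes overlap (DNASE1L1 with RPL10 and TAFAZZIN, and PLXNA3 with LAGE3 only at their ends). Their counts may therefore not be independent, which was not tested. None of the 12 was silent in unprimed cells and read in primed cells as TKTL1 was.

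**Figure D5:**
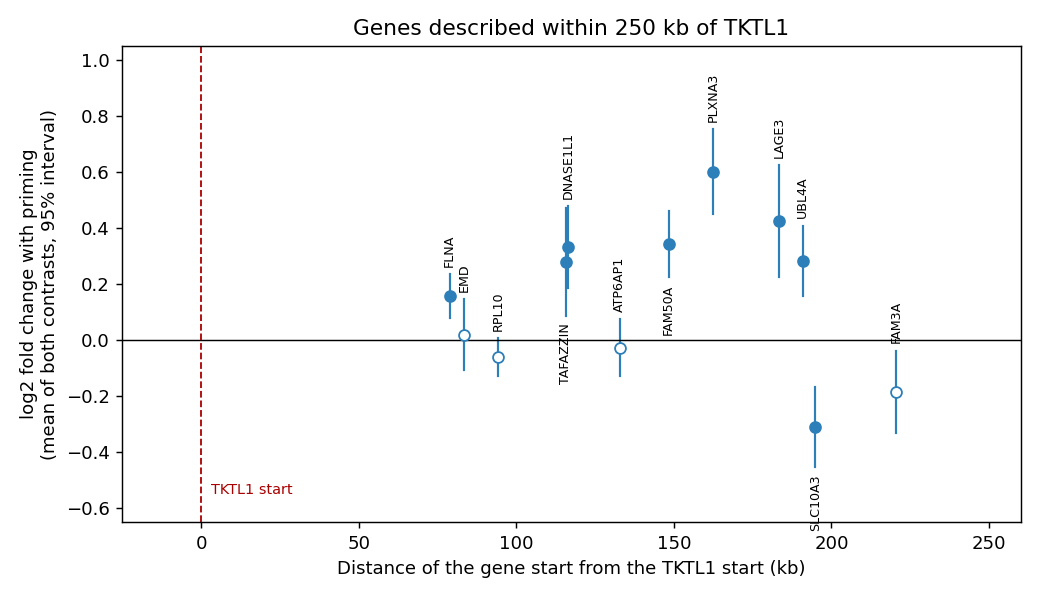
Log2 fold change with priming averaged over both CPT states (y axis, 95% interval as lines) of the 12 genes described within 250 kb of TKTL1, by the distance of their start from that of TKTL1 (x axis, kb); filled points have an adjusted p under 0.05. PLXNA3 has the highest value, 0.60, and SLC10A3 the lowest, -0.31.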

How the data were processed

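Gene counts from 12 MiaPaca2 RNA-seq libraries were analysed. The authors deposited raw counts per gene, without normalization. Per the submitters' processing notes, reads went through Trim Galore, HISAT2 2.2.1 (build GRCh38) and HTSeq. The annotation release and the strand setting are not given in the sources used here. Names and positions of genes come from GENCODE v44, which lacks 11496 of the 63677 identifiers, and promoter sequences from RefSeq (GRCh38.p14), which gave all 7 members. Total counts were 16162490 to 21224665 per library, and limits from a count of 0 (3 counts) and Poisson intervals cover counting error only.

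The main test was edgeR 4.0.16 under R 4.3.3, with filterByExpr on the 4 groups (17123 genes), TMM scaling and a single quasi-likelihood fit to the 12 libraries, two-sided, with Benjamini-Hochberg adjustment over all genes. Genes were called at an adjusted p under 0.05, and standard errors were derived from the F statistic. CPM used TMM-scaled library sizes, and levels between genes were compared per kilobase of the canonical transcript. Alternatives were DESeq2 1.42.0, the likelihood ratio test, RLE or no scaling, no filter, a fit of only the groups compared, the replicate number as a block, and leaving out each library. The method was also run on simulated counts with far fewer changed genes than were called in these data, so that run cannot vouch for the scaling or the calls here. The labels do not say whether the libraries of a group came from separate cultures, so p-values measure the spread between these libraries, which may be technical.

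The members, gene lists and tests were chosen with earlier results of these data known. Named genes were all members, up to 4 genes of each list with the smallest p among those called averaged over both CPT states, the tested genes within 250 kb of TKTL1 and the 10 genes most correlated with it. The genes named among the 31 that share its pattern, and NFE2L2 and KEAP1, were chosen after their values were seen. Some genes, of the pathway and near TKTL1, are not reported here.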

Additional observations from a re-analysis of the deposited data

How the results depend on the processing

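The number of enzymes other than TKTL1 called in GTA+5-Aza against Con was 1 under each change of tool, scaling, filter or fit, and 0 to 1 when each library was left out in turn. In CPT+GTA+5-Aza against CPT it was 2, and 1 to 2 with each library left out. Averaged over both CPT states it was 2, but 1 with scaling by library size only and 3 in the settings where RPIA was added. RPIA passed this comparison in edgeR with RLE scaling (adjusted p = 0.0456), in DESeq2 (adjusted p = 0.0308) and in edgeR without CPT replicate 3 (adjusted p = 0.0174), against 0.0571 as reported. With the replicate number as a block, the counts were 1, 2 and 2 in these comparisons and 0 for CPT, as without it, and the block changed no call of a member. The numbers were not shown to pair the libraries, since 6 of 18 same-numbered pairs had a correlation of deviations over 0.1 and 2 of 12 libraries correlated best with their own number. Scaling by library size only raised the share of higher genes among all calls from 56.9% to 68.9% in GTA+5-Aza against Con, from 56.4% to 69.0% in CPT+GTA+5-Aza against CPT and from 54.5% to 65.4% averaged, and moved the median of all genes by less than 0.1 on the log2 scale. The causes of these differences were not tested. Over all genes, the 2993 calls in GTA+5-Aza against Con fell to 1983 if Con replicate 3 was left out and to 1907 if GTA+5-Aza replicate 3 was. For CPT against Con, where edgeR's quasi-likelihood test called 0 genes and 733 had an unadjusted P under 0.05, the likelihood ratio test and DESeq2 each called 4 and no filter gave 10. Of CPT+GTA+5-Aza against GTA+5-Aza, with 464 at an unadjusted P under 0.05, the likelihood ratio test called 3, DESeq2 1 and no filter 4. For the interaction, with 451, the likelihood ratio test called 3 and no filter 11. With 3 libraries a group and 32 to 56 counts in primed libraries, TKTL1 is measured coarsely, and its response to CPT has the widest interval of the members.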
